A study of Homo sapiens with 2 samples.

Results

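The proteasome is the cell's main machine for degrading ubiquitin-tagged proteins, and 50 genes with a proteasome gene name were followed on arrays of RKO cells, out of 19775 genes with a probe set. Members were all genes whose single symbol in the probe annotation begins with PSMA, PSMB, PSMC, PSMD, PSME, PSMF or PSMG and continues with a digit, whatever their intensities. Of these, 42 are proteasome subunits, regulators or assembly factors, and 8 only share the name. RKO is an established human colon cancer line. The sh-BCLAF1-L cells carried a retroviral hairpin against the L form of BCLAF1, a nuclear protein, and the sh-Luci cells a retroviral hairpin against luciferase. Both stable lines were selected with puromycin at 2 µg/ml for 72 to 96 h, per the labels. Each group had 1 array and no replicate, so every value below is a single measurement, no p-value is given, and a difference between arrays cannot be told apart from one between hairpins. Only 1 hairpin against BCLAF1-L was measured.

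The core particle is a barrel of stacked rings, with alpha subunits at the ends and beta subunits in the middle, of which PSMB5, PSMB6 and PSMB7 cut peptide bonds. The regulatory particle binds ubiquitin chains, unfolds the substrate with a ring of ATPases (PSMC) and feeds it into the core with the help of non-ATPase subunits (PSMD). In cells exposed to interferon, PSMB8, PSMB9 and PSMB10 take the places of PSMB5, PSMB6 and PSMB7 in newly made cores, forming the immunoproteasome, and PSME1 and PSME2 form the PA28 cap. This form favours peptides that fit MHC class I molecules. In epithelial cells the immunoproteasome is usually scarce until interferon acts.

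BCLAF1 itself checked the labels: its brightest probe set read 945 in sh-BCLAF1-L cells and 2505 in sh-Luci cells, 2.65-fold lower, and all 6 of its probe sets were lower. Values are probe set intensities on a linear scale. A difference is log2(intensity + 1) in sh-BCLAF1-L minus that in sh-Luci cells, for the brightest probe set of a gene. A gene counted as detected when its mean over both arrays was at least 63.7, the 40th percentile of the array's probe sets, and 14507 genes did. Detected probe sets of the same gene scattered with a pooled SD of 0.16 on the log2 scale, or 1.12-fold. This is the only internal spread the data offer, and it covers neither cultures nor arrays. The 18 probe sets of the bacterial labelling spike-ins were all higher on the sh-BCLAF1-L array, with a median difference of 0.20, and the 3' to 5' ratio of ACTB was 3.81 in sh-BCLAF1-L and 3.41 in sh-Luci cells. Their part in the values below was not tested. Of 9 epithelial and colon markers, 6 were detected. KRT18 read 674 in sh-BCLAF1-L and 979 in sh-Luci cells (-0.54), LGALS4 read 143 in sh-BCLAF1-L and 186 in sh-Luci cells (-0.37), and the other 4 were within 0.32 of 0. EPCAM read 472 in sh-BCLAF1-L and 477 in sh-Luci cells. CDH1, KRT19 and KRT20 were below the detection intensity. Of 6 blood cell markers with a probe set, 3 were detected, LCP1 (1205 in sh-BCLAF1-L and 1438 in sh-Luci cells), CD3E and CD53. Their summed intensity over all 6 was 1549 in sh-BCLAF1-L and 1791 in sh-Luci cells, none read 0, and the leukocyte marker PTPRC read 43.3 in sh-BCLAF1-L and 41.2 in sh-Luci cells, below the detection intensity. Of 4 endothelial and 4 fibroblast markers, 2 each were detected.

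Proteasome transcripts differed little between the cells. Of the 42 proteasome genes 41 were detected, and none of the 41 lay at or past 0.32 on the log2 scale, a ratio of 5 to 4, in either direction. Over all detected genes, 2.21% were lower by that much and 4.16% higher. At 1.5-fold the counts were also 0 in both directions, against 0.2% lower and 0.434% higher of all detected genes. The proteasome genes spanned -0.25 (PSMC4) to 0.18 (PSMC2), with a median of -0.028 and an SD of 0.092. All detected genes had a median of 0.019 and an SD of 0.17. Most proteasome genes are bright, so the 6753 genes at or above the 80th percentile of probe set intensity (303) are the closer background. Their SD was 0.15, and 1.39% of them were lower and 2.49% higher by 0.32 or more. Of the 41 genes, 36 differed by less than the scatter of 0.16 between probe sets of a gene, a share of 87.8%, against 75.7% of these bright genes. A difference below 0 was seen for 28 of the 41, or 68.3%, against 45% of all detected genes and 45.8% of the bright ones. Counting both signs, 31 of the 41 lay within 0.1 of 0, or 75.6%, against 49.1% of all detected genes and 55.9% of the bright ones.

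**Figure D1:**
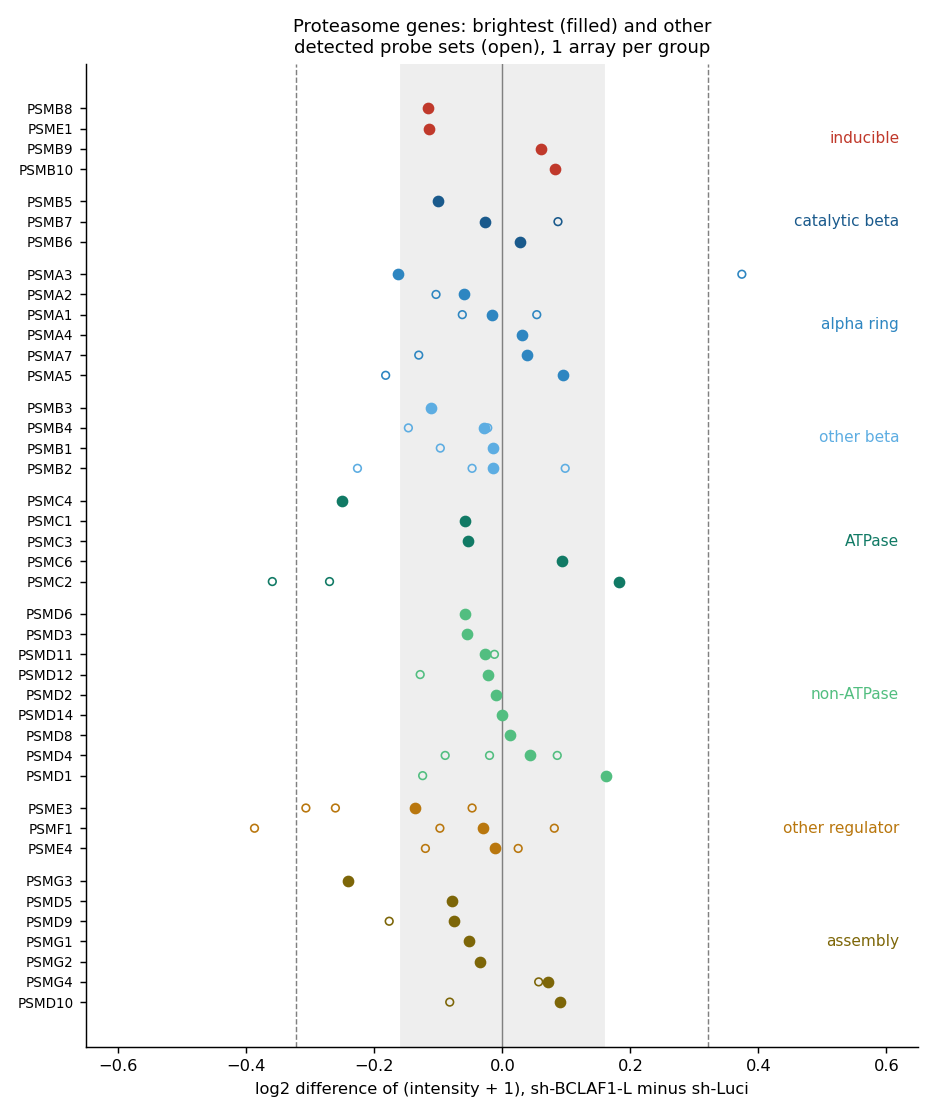
Log2 differences (horizontal axis, sh-BCLAF1-L minus sh-Luci) of the 41 detected proteasome genes, grouped by role. Filled points are the brightest probe set of a gene, open points its other detected probe sets, the grey band the SD of 0.16 between probe sets of a gene, and the dashed lines a difference of 0.32 in size; all filled points lie between the dashed lines.

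Every probe set that the annotation links to a proteasome gene alone was examined, not only the brightest. Of 81 such probe sets 73 were detected, and 52 were lower in sh-BCLAF1-L cells and 21 higher, a share below 0 that compares with 46.1% of all detected probe sets with 1 gene symbol. At or past 0.32 were 2 of the 73 in the lower and 1 in the higher direction, against 2.67% and 4.29% of all such probe sets. Those 3 were second or lesser probe sets of PSMF1, PSMC2 and PSMA3 with intensities below 150. Where a gene had more than 1 detected probe set, as 20 did, 7 genes were lower on each, 1 was higher on each and 12 were mixed. The 7 were PSMA2, PSMB1, PSMB4, PSMD9, PSMD11, PSMD12 and PSME3, and the higher gene was PSMG4. These counts were not made over all detected genes, so whether 7 lower and 1 higher is unusual cannot be told. Probe sets annotated to PSMA2 together with C7orf25 were not counted here and were higher in sh-BCLAF1-L cells, by 0.070 and 0.12. The other 21 detected genes rested on 1 detected probe set.

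The inducible subunits lay within the range of the constitutive ones. PSMB8, the inducible chymotrypsin-like subunit, read 358 in sh-BCLAF1-L cells and 389 in sh-Luci cells, 1.08-fold lower. PSMB9, the inducible counterpart of PSMB6, read 439 in sh-BCLAF1-L cells and 421 in sh-Luci cells, a difference of 0.061. PSMB10, the inducible trypsin-like subunit, read 239 in sh-BCLAF1-L cells and 226 in sh-Luci cells, a difference of 0.083. The inducible catalytic subunits thus lay on both sides of 0, each closer to it than the scatter of 0.16. PSME1, the alpha subunit of the PA28 cap, read 2133 in sh-BCLAF1-L cells and 2308 in sh-Luci cells, 1.08-fold lower. Each of these 4 genes had a single probe set. The only probe set for PSME2, the beta subunit of PA28, is annotated to PSME2 together with the microRNA gene MIR7703, so it was counted for neither. It read 1577 in sh-BCLAF1-L and 1698 in sh-Luci cells, a difference of -0.11.

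Setting each inducible subunit against the one it replaces gave no shift beyond the scatter of probe sets. PSMB5, the constitutive chymotrypsin-like subunit, read 1459 in sh-BCLAF1-L cells and 1565 in sh-Luci cells, a difference of -0.10. The difference of PSMB8 minus that of PSMB5 was -0.016. PSMB6, the caspase-like subunit, read 1930.5 in sh-BCLAF1-L cells and 1894 in sh-Luci cells, and PSMB9 minus PSMB6 gave 0.034. In these 2 pairs the inducible and the constitutive subunit had nearly the same difference. PSMB7, the constitutive trypsin-like subunit, read 3832 in sh-BCLAF1-L cells and 3906 in sh-Luci cells, with a difference of -0.028 on this probe set and 0.087 on its dimmer one. PSMB10 minus PSMB7 gave 0.11, the widest of the 3 pairs, against an SD of 0.22 that the probe set scatter gives for a difference of this kind. Over the groups, the 4 measured inducible genes had a median of -0.026 and the 27 constitutive core and regulatory particle subunits a median of -0.017, a gap of -0.0097. The gap was 0.089 when probe sets able to match more than 1 transcript were left out, a setting that drops PSMB8, and -0.090 with the shared PSME2 probe set counted, so its sign is not settled.

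**Figure D2:**
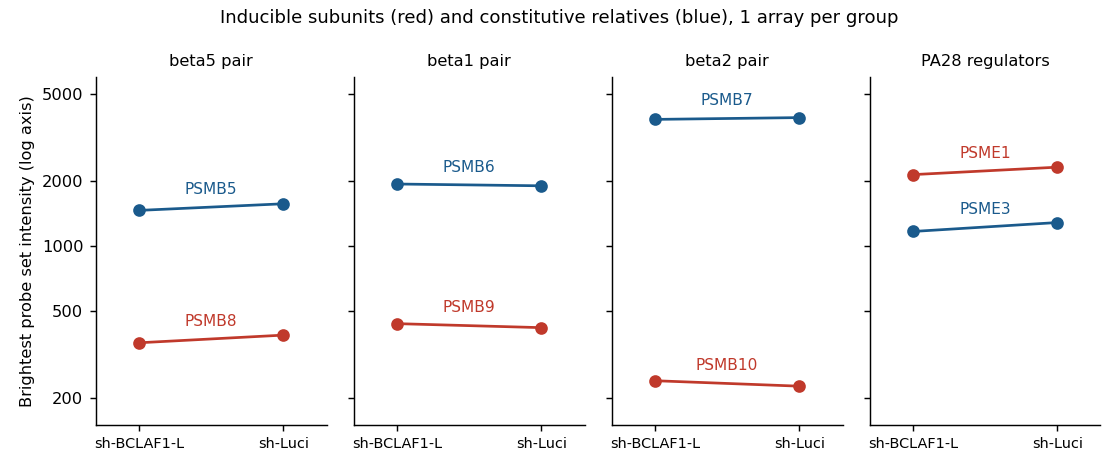
Brightest probe set intensities (log axis) of 4 inducible subunits (red) and a constitutive relative of each (blue) in sh-BCLAF1-L (left of each panel) and sh-Luci cells (right). The lines are close to level, with differences between -0.14 (PSME3) and 0.083 (PSMB10); intensities of different probe sets are not comparable with each other.

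The start regions of the inducible genes are shown because interferon acts on such genes through the interferon-stimulated response element, bound by factors of the IRF family, and because several other interferon genes were lower on the same arrays. RefSeq start windows of 300 bases, from 250 before to 50 after an annotated start in GRCh38.p14, were matched for 42 of 48 proteasome genes. The core of that element, GAAA, 2 bases of any kind and GAAA again, was searched on both strands. The stretches below run 5′ to 3′ along the gene, from 100 bases before the start to 20 after it, and capitals mark the core. They lie at chr6:32844028-32844147, minus strand for PSMB8, chr16:67936831-67936950, minus strand for PSMB10, chr14:24136094-24136213, plus strand for PSME1, chr14:24146591-24146710, minus strand for PSME2 and chr6:32854092-32854211, plus strand for PSMB9. IFI44 (chr1:78649689-78649808, plus strand) and IFIT3 (chr10:89332429-89332548, plus strand) are shown beside them as the interferon genes with the lowest differences among those of the comparison list below with a core in such a stretch.
PSMB8: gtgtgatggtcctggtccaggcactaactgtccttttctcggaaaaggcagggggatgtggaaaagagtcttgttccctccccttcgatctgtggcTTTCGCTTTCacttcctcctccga
PSMB10: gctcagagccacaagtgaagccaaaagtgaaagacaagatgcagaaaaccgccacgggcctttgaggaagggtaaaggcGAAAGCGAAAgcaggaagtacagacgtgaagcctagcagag
PSME1: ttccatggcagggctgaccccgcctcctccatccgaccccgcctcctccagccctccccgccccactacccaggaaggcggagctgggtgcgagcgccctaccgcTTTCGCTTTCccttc
PSME2: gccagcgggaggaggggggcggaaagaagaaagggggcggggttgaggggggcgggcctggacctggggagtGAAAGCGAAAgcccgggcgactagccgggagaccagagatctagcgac
PSMB9: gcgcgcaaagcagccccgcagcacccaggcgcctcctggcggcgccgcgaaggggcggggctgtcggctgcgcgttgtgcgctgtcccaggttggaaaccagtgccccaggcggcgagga
IFI44: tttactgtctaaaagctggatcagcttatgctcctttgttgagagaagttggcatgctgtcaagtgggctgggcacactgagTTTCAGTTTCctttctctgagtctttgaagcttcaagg
IFIT3: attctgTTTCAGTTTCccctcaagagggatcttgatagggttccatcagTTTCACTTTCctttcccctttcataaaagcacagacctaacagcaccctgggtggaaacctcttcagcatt
The core was found in the windows of PSMB8, PSMB10, PSME1 and PSME2, that is in 4 of the 5 inducible genes, and not in that of PSMB9. It was present in 3.57% of all 35116 windows and 4.38% of all genes, and in 2 of 26 constitutive subunit genes with a window, PSMA4 and PSMB4. PSMB8 has a second annotated start, whose window holds no core, and which start RKO cells use was not measured. All 4 inducible genes held the same letters, GAAAGCGAAA, on 1 of the strands, which 35 of all windows hold (0.0997%). It begins 28 bases before the start in PSME2 and 21 before it in PSMB10, spans the start in PSMB8 and begins at base 6 after it in PSME1. These letters were searched after the matches had been seen. The STAT site, TTC, 3 bases of any kind and GAA, was planned together with the core and searched in the same windows. It was found in 1 of 5 inducible genes (PSMB8), in 5 of 26 constitutive ones and in 9.38% of all genes. The antioxidant response core, TGAC, 3 bases of any kind and GC, was not in that plan. It is the kind of site through which NFE2L1 acts on subunit genes. On both strands of the same windows, this antioxidant core was found in 3 of 5 inducible genes, in 7 of 26 constitutive ones and in 16.1% of all genes. A match is a description of the sequence and not evidence that a factor binds there.

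A list of 14 interferon-induced genes, chosen with earlier results of these arrays known, was set beside the inducible subunits. Its median difference was -0.61, and 9 of the 14 were lower in sh-BCLAF1-L cells by 0.32 or more, 8 of them by 1.5-fold or more. Over all detected genes, 2.21% were lower by 0.32 or more and 0.2% by 1.5-fold or more. IFI44, a protein induced by interferon, read 347 in sh-BCLAF1-L cells and 629 in sh-Luci cells on its brightest probe set, a difference of -0.86, whereas its second probe set differed by 0.0088. IFIT3, an antiviral tetratricopeptide protein, read 452 in sh-BCLAF1-L cells and 810.0 in sh-Luci cells, a difference of -0.84, and -0.53 on its second probe set. MX1, an antiviral GTPase, was the lowest of the list, with 757 in sh-BCLAF1-L cells and 1414 in sh-Luci cells, a difference of -0.90. IRF7, IFIT1 and IFIH1 differed by -0.73, -0.69 and -0.65. The other 5 genes of the list lay within 0.32 of 0, OAS2 at -0.014, BST2 at 0.020, ISG20 at 0.063, PARP9 at 0.073 and IRF1 at 0.15. The 4 inducible proteasome genes ran from -0.12 (PSMB8) to 0.083 (PSMB10). The list was split at 0.32 on the same values, so their place beside either part of it is a description only. The core was present in the windows of 10 of the 12 listed genes with a window, in 22 matches. None of those 22 read GAAAGCGAAA, and the most frequent form was GAAACTGAAA with 7. The form GAAACTGAAA lay in IFI44 and IFIT3, and also in BST2, ISG20 and PARP9, which were within 0.32 of 0. MX1 and IFIT1 held other forms of the core. The difference between the gene groups was not tested, since each group had 1 array.

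**Figure D3:**
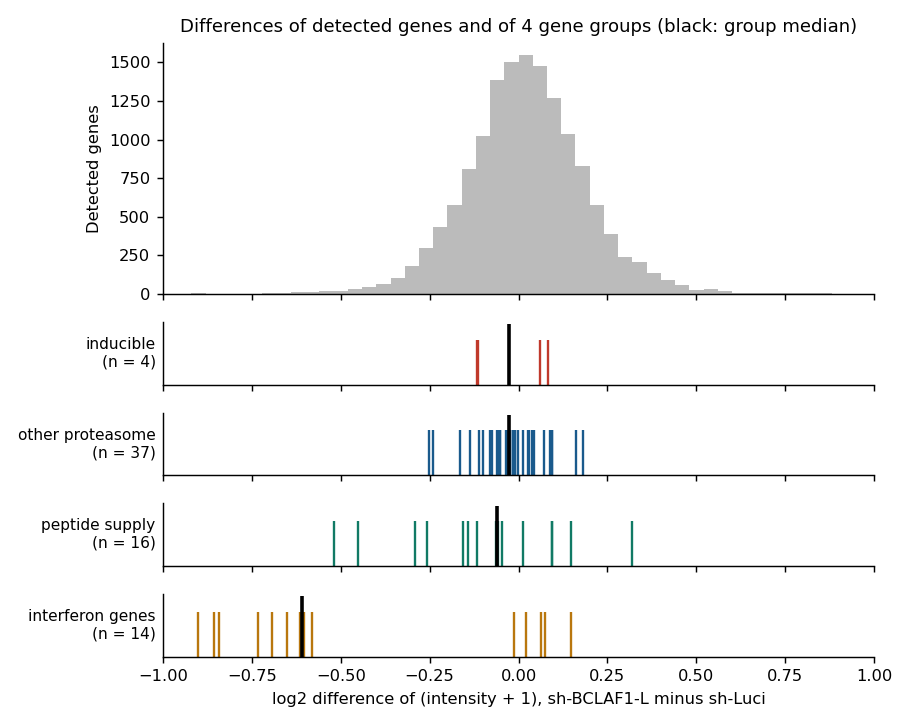
Log2 differences (horizontal axis, sh-BCLAF1-L minus sh-Luci) of all 14507 detected genes as a histogram, of which 11 lie beyond the axis, and of 4 gene groups as 1 line per gene with a black line at the median. The 4 inducible genes and the 37 other proteasome genes stay within -0.25 and 0.18, and the interferon genes have a median of -0.61.

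The genes that supply peptides to MHC class I were less uniform than the proteasome. Of 19 listed genes 16 were detected, with a median of -0.062 and a range of -0.52 to just under 0.32. Of the 16, 2 were lower by 0.32 or more and none higher by as much. Over all detected genes the shares were 2.21% lower and 4.16% higher. TAP2, half-transporter of the peptide pump of the endoplasmic reticulum, read 278 in sh-BCLAF1-L cells and 399 in sh-Luci cells, a difference of -0.52, but 0.023 and -0.14 were seen on its other detected probe sets. Its partner TAP1 read 812 in sh-BCLAF1-L cells and 761 in sh-Luci cells, a difference of 0.094. The 4 genes TAP2, PSMB8, TAP1 and PSMB9 are neighbours on chromosome 6 in the RefSeq gene order of GRCh38.p14, and the windows of TAP1 and TAP2 also hold GAAAGCGAAA. Along this cluster the brightest probe sets thus gave -0.52, -0.12, 0.094 and 0.061. LAP3, a leucine aminopeptidase that trims peptides, read 1025 in sh-BCLAF1-L cells and 1401 in sh-Luci cells, a difference of -0.45 on its single probe set.

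Among 16 listed regulators of the inducible subunits, 14 were detected, with a median of 0.092. IRF9, the DNA-binding part of the type I interferon complex, read 407 in sh-BCLAF1-L cells and 555 in sh-Luci cells, a difference of -0.45. IRF8, a factor of blood cells, read 125 in sh-BCLAF1-L cells and 79.8 in sh-Luci cells, a difference of 0.64 on a single dim probe set. These were the 2 of 14 past 0.32 in size, against 2.21% lower and 4.16% higher by that much of all detected genes. IRF1, an activator of PSMB9 in interferon-treated cells, read 223 in sh-BCLAF1-L cells and 201 in sh-Luci cells, a difference of 0.15.

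The alpha ring forms the gate of the core. All 6 measured alpha subunits were detected, 3 lower and 3 higher in sh-BCLAF1-L cells, with a median of 0.0070 that is -0.019 once the median difference of all probe sets is subtracted. PSMA7 read 5675 in sh-BCLAF1-L cells and 5526 in sh-Luci cells. PSMA1 read 4279 in sh-BCLAF1-L cells and 4329 in sh-Luci cells. PSMA4 read 4151 in sh-BCLAF1-L cells and 4064 in sh-Luci cells. These pairs of readings, all from brightest probe sets, are within 1.03-fold of each other. PSMA7 differed by -0.13 on its dimmer probe set, and PSMA1 by -0.063 and 0.054 on its other ones. PSMA2 differed by -0.059 (3534 in sh-BCLAF1-L and 3682 in sh-Luci cells) and by -0.10 on its second probe set. PSMA5 differed by 0.094 (1811 in sh-BCLAF1-L and 1696 in sh-Luci cells) and by -0.18 on its dimmer probe set. PSMA3 had the lowest value of the ring, with 1711 in sh-BCLAF1-L cells and 1916 in sh-Luci cells, a difference of -0.16. Its second detected probe set went the other way, at 140.1 in sh-BCLAF1-L and 108 in sh-Luci cells (0.37). The probe sets of PSMA6 are all annotated to PSMA6 together with PRORP and were counted for neither. The brighter read 4493 in sh-BCLAF1-L and 4325 in sh-Luci cells, the dimmer 658 in sh-BCLAF1-L and 549 in sh-Luci cells.

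The beta subunits without a catalytic site all had small negative differences on their brightest probe sets. PSMB3 read 2378 in sh-BCLAF1-L cells and 2568 in sh-Luci cells, the lowest of the 4 at -0.11. PSMB4 read 3998 in sh-BCLAF1-L cells and 4078 in sh-Luci cells, and its 3 probe sets lay between -0.15 and -0.023. PSMB1 (3202 in sh-BCLAF1-L and 3235 in sh-Luci cells) and PSMB2 (2792 in sh-BCLAF1-L and 2819 in sh-Luci cells) differed by -0.015 and -0.014. The other detected probe sets of PSMB2 were mixed, at 0.098, -0.047 and -0.23, and that of PSMB1 gave -0.097. The median over these 4 genes was -0.022, and all 13 constitutive core subunits had a median of -0.017 with an SD of 0.069.

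The ATPases of the regulatory particle, which unfold substrates, were more spread, with an SD of 0.17 over 5 genes, than the other groups of proteasome genes with 4 or more detected members, against 0.11 over 4 inducible and 7 assembly genes and 0.067 over 9 non-ATPase subunits. PSMC4 had the lowest difference of all proteasome genes: it read 953 in sh-BCLAF1-L cells and 1135 in sh-Luci cells, 1.19-fold lower, on 1 probe set. PSMC2 had the highest on its brightest probe set, which read 3820.3 in sh-BCLAF1-L cells and 3367 in sh-Luci cells, 1.13-fold higher. Its other probe sets went the opposite way, with 334 in sh-BCLAF1-L and 403 in sh-Luci cells (-0.27) and with 116 in sh-BCLAF1-L and 149 in sh-Luci cells (-0.36). The direction of PSMC2 therefore depends on the probe set. PSMC6 read 3267 in sh-BCLAF1-L and 3061 in sh-Luci cells (0.094), PSMC1 2071 in sh-BCLAF1-L and 2156 in sh-Luci cells (-0.059), and PSMC3 544 in sh-BCLAF1-L and 565 in sh-Luci cells (-0.053). PSMC5 was not analysed here.

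The non-ATPase subunits of the regulatory particle stayed close to 0. PSMD14, the deubiquitinase that removes ubiquitin chains before degradation, read 3581 in sh-BCLAF1-L cells and 3583 in sh-Luci cells. PSMD2, a scaffold that docks ubiquitin carriers, read 4208 in sh-BCLAF1-L cells and 4236 in sh-Luci cells. PSMD8 read 1553 in sh-BCLAF1-L cells and 1540.3 in sh-Luci cells. Each of these 3 was within 0.012 of 0 on the log2 scale. PSMD1, the other large scaffold, was the highest of the group at 0.16 (3268 in sh-BCLAF1-L and 2922 in sh-Luci cells), while its second probe set differed by -0.12. PSMD4, a ubiquitin receptor, read 1123 in sh-BCLAF1-L and 1090.05 in sh-Luci cells, and its 4 probe sets ran from -0.089 to 0.086. The lowest values were those of PSMD6 (2470.3 in sh-BCLAF1-L and 2573 in sh-Luci cells) and PSMD3 (282 in sh-BCLAF1-L and 293 in sh-Luci cells), at -0.059 and -0.056. PSMD11 (1428 in sh-BCLAF1-L and 1456 in sh-Luci cells) and PSMD12 (2439.8 in sh-BCLAF1-L and 2479 in sh-Luci cells) differed by -0.028 and -0.023. The 9 genes had a median of -0.0093, and PSMD7 and PSMD13 were not analysed here.

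The alternative caps and the inhibitor of the core had negative differences on their brightest probe sets. PSME3, a nuclear activator that is not an interferon-induced gene, read 1167 in sh-BCLAF1-L cells and 1283 in sh-Luci cells, a difference of -0.14. It was lower on all 4 of its probe sets, by values from -0.31 to -0.047, the largest set of probe sets that all ran the same way among these genes. PSME4, a single-chain cap, read 819.9 in sh-BCLAF1-L cells and 826 in sh-Luci cells, and its probe sets lay between -0.12 and 0.025. PSMF1, which binds the core and inhibits it in the test tube, read 1469.6 in sh-BCLAF1-L cells and 1501 in sh-Luci cells, a difference of -0.030. Its 4 probe sets spread from -0.39, on the dimmest (57.1 in sh-BCLAF1-L and 75.0 in sh-Luci cells), to 0.081, the value of its brightest one when _s_at and _x_at probe sets are left out.

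Assembly factors are chaperones that leave the finished particle. PSMG3, which acts with PSMG4 in alpha ring assembly, read 719 in sh-BCLAF1-L cells and 850.3 in sh-Luci cells, 1.18-fold lower on its single probe set. Its partner PSMG4 read 545 in sh-BCLAF1-L cells and 519 in sh-Luci cells, a difference of 0.071. These partners thus lay on opposite sides of 0, by 0.24 below and 0.071 above. The other alpha ring chaperones, PSMG1 (2025 in sh-BCLAF1-L and 2100.4 in sh-Luci cells) and PSMG2 (2683 in sh-BCLAF1-L and 2749.6 in sh-Luci cells), differed by -0.053 and -0.035. Chaperones of the ATPase base differed as little: PSMD5 by -0.079 (1145 in sh-BCLAF1-L and 1210.1 in sh-Luci cells), PSMD9 by -0.075 (769.6 in sh-BCLAF1-L and 811 in sh-Luci cells) and PSMD10 by 0.090 (1455 in sh-BCLAF1-L and 1367 in sh-Luci cells). PSMD9 was also lower on its second probe set (-0.18), and PSMD10 gave -0.082 on its own second one. The 7 assembly genes had a median of -0.053.

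Partners of the proteasome without a PSM name also showed small differences. Of 32 listed genes, which include shuttles, deubiquitinases, ubiquitin genes and the NFE2L1 route that controls proteasome genes, 27 were detected, and none reached 0.32 in size. Of all detected genes, 2.21% were lower and 4.16% higher by that much. The median of the 27 genes was -0.0026, with 14 lower and 13 higher. NFE2L1, the transcription factor that raises subunit genes when proteasomes are inhibited, read 1085 in sh-BCLAF1-L cells and 1044 in sh-Luci cells. POMP, the maturation factor of the core, read 3803 in sh-BCLAF1-L cells and 4073 in sh-Luci cells. The lowest of the list were UBA1, the main ubiquitin-activating enzyme, at -0.31 (1707 in sh-BCLAF1-L and 2114 in sh-Luci cells) and ADRM1, a ubiquitin receptor of the regulatory particle, at -0.30 (618 in sh-BCLAF1-L and 759 in sh-Luci cells).

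The remaining members are genes that only share the name or that RKO cells did not show. PSMA8, the alpha subunit of the testis proteasome, read 28.0 in sh-BCLAF1-L and 31.6 in sh-Luci cells, below the detection intensity, and PSMB11 of the thymus proteasome was not analysed here. Of the 8 name-sharing genes 5 were detected. PSMD6-AS2, an antisense transcript, was the single member of the 46 detected past 0.32 in size. It read 74.7 in sh-BCLAF1-L and 98.7 in sh-Luci cells, 1.32-fold lower, close to the detection intensity. For comparison, 2.21% of all detected genes were lower by 0.32 or more and 4.16% higher. PSMA3-AS1 read 342 in sh-BCLAF1-L and 397 in sh-Luci cells (-0.22), but its 3 probe sets ran from -0.24 to 0.30. PSMC3IP, a meiotic recombination factor, differed by -0.029, PSME3IP1, which binds PSME3, by 0.064, and PSMG3-AS1 by -0.080. PSMB8-AS1, PSMD7-DT and PSMD14-DT were below the detection intensity.

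**Figure D4:**
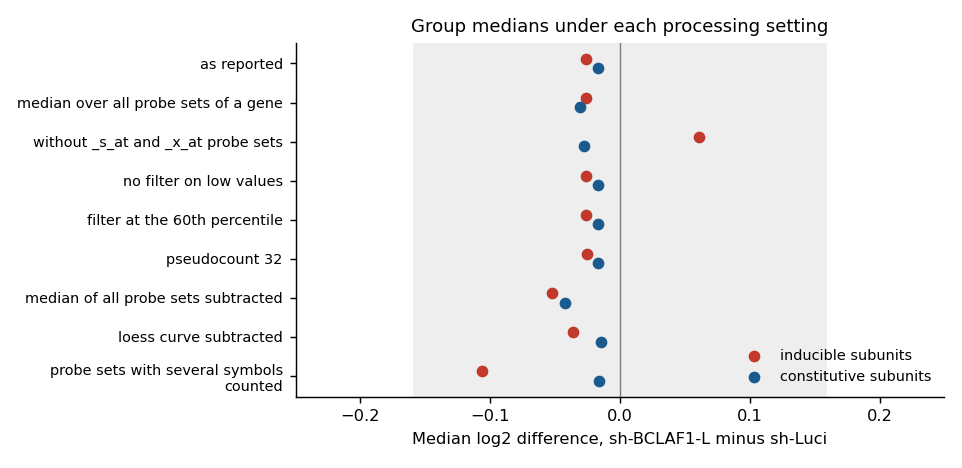
Median log2 difference (horizontal axis, sh-BCLAF1-L minus sh-Luci) of the inducible (red) and constitutive subunits (blue) under each processing setting, with the grey band at the SD of 0.16 between probe sets of a gene. All medians lie within the band, between -0.11 and 0.061 for the inducible and between -0.043 and -0.015 for the constitutive subunits. The band describes single probe sets and not medians over several genes, so it does not measure how stable the medians are.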

How the data were processed

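The data are 2 Affymetrix arrays of biotin-labelled RNA. The deposited table holds linear probe set intensities, and RMA (background correction, normalization between arrays and probe summary) is named in the submitters' processing notes. Its program, version and scaling: not given in the sources used here. Of 54675 probe sets 41097 carry 1 gene symbol in the platform annotation, 1801 several and 11777 none; only those with 1 were used, with symbols updated through Entrez identifiers in a RefSeq table of GRCh38.p14. A gene's value came from its brightest probe set, as log2(value + 1), computed with Python 3.11.15 and pandas 2.3.3. With 1 array per group no test was run, and the number of arrays limits the precision. Residual background in dim probe sets compresses differences. Calculations were tested on simulated data.

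Members, gene lists and thresholds were chosen with earlier results of these data known. Named with values are all inducible genes and counterparts, all other proteasome genes, members past 0.32 on the log2 scale and the detected genes past it in each other list, at most 6 a list, largest first; examples beyond this (EPCAM, LCP1, TAP1, IRF1, OAS2, BST2, ISG20, PARP9, NFE2L1, POMP, UBA1, ADRM1) were picked after their values were seen. The non-ATPase group was to be named by its 4 highest and 4 lowest members, and its ninth member is given too. Alternatives varied the probe set choice, filter, pseudocount and scaling. Promoter windows are from RefSeq (GRCh38.p14).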

Additional observations from a re-analysis of the deposited data

How the results depend on the processing

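No paired analysis was possible because there was 1 array per group, which also leaves no replicate to drop. The 7 alternatives took a gene's median over its probe sets, dropped _s_at and _x_at probe sets, or used no filter, a filter at the 60th percentile, a pseudocount of 32, subtraction of the median difference (0.026) and subtraction of a loess curve (span 0.3). Counting probe sets with several symbols for their proteasome gene was added after seeing the data. No proteasome gene reached 0.32 in size in any of them. The count of members lower by that much, 1 as reported (PSMD6-AS2), was 0 for gene medians, for the filter at the 60th percentile and for the pseudocount of 32. Without _s_at and _x_at probe sets the ATPase median was -0.25, over 3 genes instead of 5. The inducible median ran from -0.11, with the shared PSME2 probe set, to 0.061, without the _s_at probe set of PSMB8; the constitutive median ran from -0.043 to -0.015. Of 354 single-gene values 4 moved by more than 0.16: PSMA3 to 0.027 for gene medians, PSMC2 to -0.27 in that setting and without _s_at and _x_at probe sets, and PSMD10 to -0.082 without _s_at and _x_at probe sets.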

Other observations

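The letters GAAAGCGAAA of the inducible proteasome genes also occur in the start windows of 29 genes outside the proteasome and interferon lists. Of these 22 were detected, and their median difference was -0.068, with 14 below 0, or 63.6%. TAP2 was the lowest, at -0.52 on its brightest probe set but 0.023 and -0.14 on its other detected ones. Counting TAP2, 2 of the 22 were lower by 0.32 or more, or 9.09%, and none was higher by as much. For the form GAAACTGAAA, the most frequent in the interferon list, 32 detected genes outside the lists had a median of -0.076. Of the 32, 22 were below 0, or 68.8%, 3 were lower by 0.32 or more, or 9.38%, and 1 was higher by as much. With any form of the core, the motif searched first, 418 detected genes outside the lists had a median of -0.0023. Of these, 50.2% were below 0, 3.35% were lower by 0.32 or more and 3.35% higher. All 11543 detected genes outside the lists with a window had a median of 0.019, with 44.8% below 0. By 0.32 or more, 2.11% of them were lower and 4.07% higher. The letters of the 2 forms were chosen after the values were known, and no test was made.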
